A study of Mus musculus with 6 samples.

Results

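Antigen processing for MHC class I was followed in mouse pancreas through 10 genes: B2m, Tap1, Tap2, Tapbp, Psmb8, Psmb9, Psmb10, Psme1, Psme2 and Nlrc5. The members were the probe sets of the deposited table whose only gene symbol in the array annotation was one of these names. The rule found 15 probe sets for 9 of the 10 genes, among 34958 probe sets with 1 symbol that measured 18194 genes, and 45101 probe sets in all. Psme2 was named only by 1 probe set shared with Psme2b and was not analysed here. Tap1 had 4 probe sets, B2m, Tapbp and Psmb8 had 2 each, and the other genes had 1. The probe set with the highest mean stood for a gene, and all 15 are described.

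The study asked how gene expression differs when beta cells of the pancreas make more Prox1, a transcription factor of the homeobox class. RNA of whole pancreas from NMRI mice at postnatal day 15 was hybridised to 6 Affymetrix 3' expression arrays, 1 per sample. The 3 Prox1-OE samples had the genotype Jojo-Prox1,Ngn3-cre, which joins a Prox1 transgene to Ngn3-cre, and the 3 control samples had Ngn3-cre alone, so both groups carried the Cre transgene. Ngn3-cre acts in the progenitors of endocrine cells, which are a small part of the tissue profiled, and the labels do not tell whether each sample was a separate animal. P-values therefore measure only the spread between these samples, which may be technical.

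Cells show fragments of their own proteins to CD8 T cells on MHC class I molecules. The proteasome cuts proteins into peptides, the transporter made of Tap1 and Tap2 carries them into the endoplasmic reticulum, and tapasin, encoded by Tapbp, helps to load them onto a heavy chain paired with beta-2-microglobulin, encoded by B2m. Interferon-gamma raises this machinery and exchanges the catalytic subunits of the proteasome for Psmb8, Psmb9 and Psmb10, which make the immunoproteasome. White blood cells hold the immunoproteasome without such a stimulus.

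All levels are log2 probe set summaries, where 1 unit is a doubling, and differences are Prox1-OE minus control on that scale. Arrays had medians between 4.38 and 4.42, Pearson correlations from 0.988 to 0.994, and a 3' excess over the 5' end of control transcripts, which grows as RNA degrades, from 0.91 to 0.99. Markers of acinar cells, the main cells of pancreas, had mean levels of 14.53 to 14.65 on every array, near the highest value of 14.92. Prox1 differed by 0.06 ± 0.20 (SE) on its brightest probe set, with control replicate 1 the highest array, at 5.61 against 4.98 to 5.31 in Prox1-OE. That probe set may lie outside the transgene's transcript, which was not tested. Prox1-OE replicate 1 stood apart: its pan-leukocyte markers had a mean level of 7.19, against 5.62 and 6.24 on Prox1-OE replicates 2 and 3 and 5.32 to 5.46 on the controls. The differences of the members are given with and without that array.

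Most class I processing genes read higher in Prox1-OE pancreas, led by B2m and Psmb8, and none of the differences passed the test. Of the 9 genes 8 had a positive difference, as 46.2% of all genes did, and Psmb10 had a negative one. Adjusted p-values ran from 0.690 to 0.956 (limma, Benjamini-Hochberg over 18194 genes), so 0 of 9 genes were called at 0.05, where 0.022% of all genes were called higher and 0.0055% lower. At an unadjusted limma p under 0.05, B2m, Psmb8, Tap2 and Psmb9 were higher and 0 members lower, against 2.94% and 3.7% of all genes. For the same 4 genes every Prox1-OE array read above every control, which held for 5.05% of all genes, and for Psmb10 every Prox1-OE array read below, which held for 7.02%. The median difference of the 9 genes was 0.36, beside -0.01 over all genes. In bulk tissue, a change in the number of cells of a type and in RNA per cell cannot be told apart.

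Prox1-OE replicate 1 carried much of this. Leaving it out gave a median difference of 0.08, and 2 of the 9 genes were then higher at an unadjusted limma p under 0.05. In that fit 8 of the 9 differences were still positive, the smallest 0.0012 for Tap1. With the mean of the 12 pan-leukocyte markers as a covariate, the median was -0.02, with 4 of the 9 differences positive. This fit called 0 of all 18194 genes. The covariate was higher on every Prox1-OE array than on any control, so the fit cannot separate leukocyte content from genotype.

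**Figure D1:**
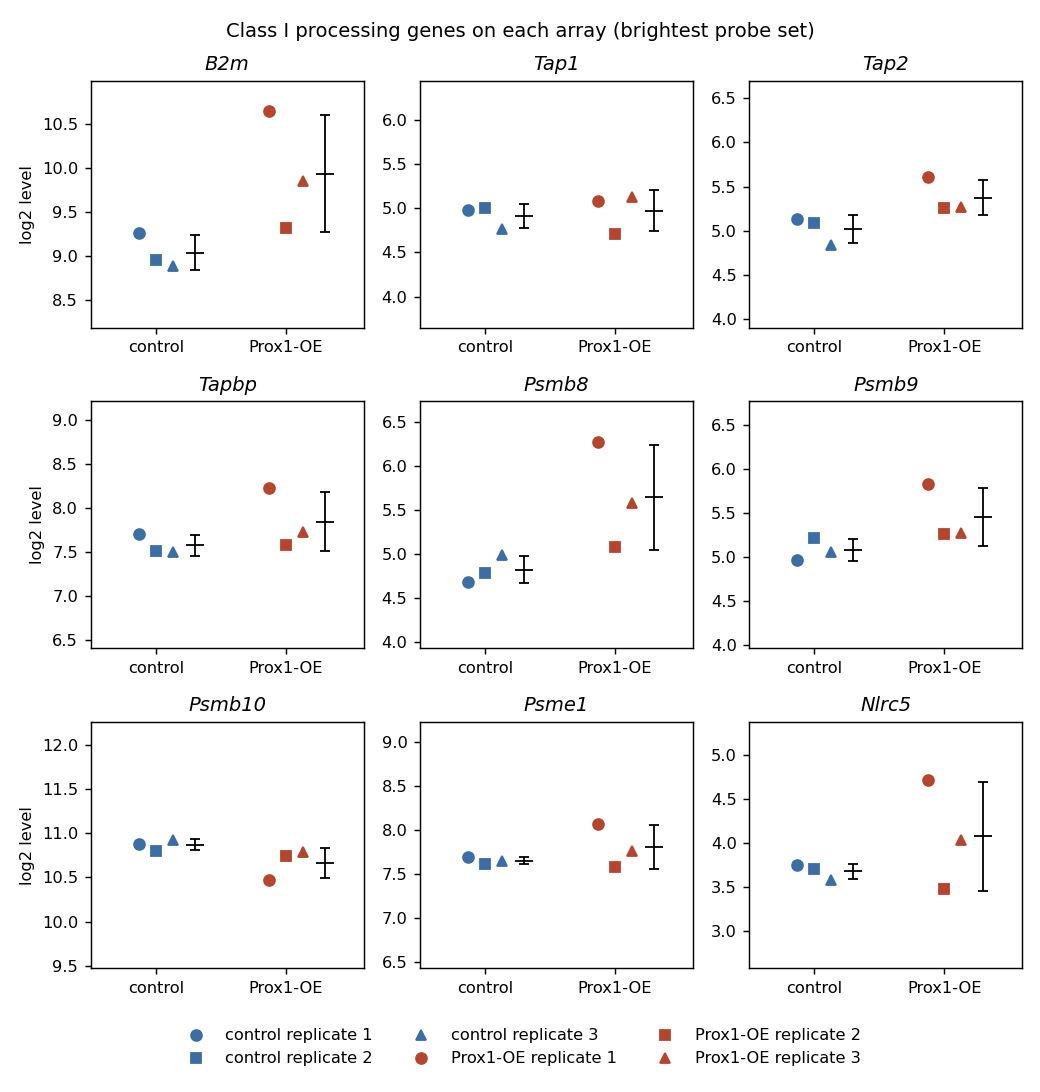
Log2 level of the brightest probe set of each measured member (vertical axes, each spanning the same number of log2 units) on the control arrays (blue) and Prox1-OE arrays (red), with replicate numbers as marker shapes and black bars for the mean ± SD of 3 arrays. Prox1-OE replicate 1 is the highest array for B2m, Tap2, Tapbp, Psmb8, Psmb9, Psme1 and Nlrc5 and the lowest for Psmb10.

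B2m, the light chain shared by all class I molecules, had the largest difference of the members. Its brightest probe set, 1452428_a_at, read 10.64, 9.32 and 9.85 on Prox1-OE replicates 1 to 3 and 9.26, 8.96 and 8.89 on control replicates 1 to 3. Prox1-OE replicate 2 lay just above the highest control, and replicate 1 far above it. The means were 9.94 ± 0.66 (SD, n = 3) and 9.04 ± 0.20, a difference of 0.90 ± 0.29 (SE) or 1.87-fold (limma adjusted p = 0.690, 95% interval 0.23 to 1.57). The other probe set, 1449289_a_at, read 10.58, 9.38 and 9.77 in Prox1-OE and 9.13, 8.91 and 8.61 in control, again without overlap. It differed by 1.03 ± 0.27 (limma adjusted p = 0.772 over all probe sets). B2m still differed by 0.55 ± 0.18 when Prox1-OE replicate 1 was left out, and by 0.06 ± 0.15 with the leukocyte covariate.

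The stretch before B2m is printed because B2m differed most and because class I genes are known to respond to immune signals through short elements near their starts. The 250 bases before its start in RefSeq (GRCm38.p6, chr2:122147437-122147686, plus strand, inside the annotated span of Patl2) read 5' to 3' as follows, with motif matches in capitals.
B2m: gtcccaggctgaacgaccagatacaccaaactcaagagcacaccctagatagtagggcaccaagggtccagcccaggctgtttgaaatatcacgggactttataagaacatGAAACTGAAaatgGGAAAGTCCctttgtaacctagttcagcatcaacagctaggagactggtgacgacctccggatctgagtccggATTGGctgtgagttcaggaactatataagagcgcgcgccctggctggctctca
Matches were sought on both strands, and those of B2m did not overlap each other. GAAANNGAA, the core of sites bound by interferon regulatory factors, stood at -139 to -131 from the start and is held by 7.13% of the 32851 promoters of the RefSeq table in the same window. GGNNTTTCC, a core of NF-kappa-B sites, stood at -126 to -118 (4.93% of promoters), and ATTGG, the inverted CCAAT box bound by NF-Y, at -53 to -49 (33.8%). The motifs were chosen with the sequences in view, a match describes letters alone, and binding was not measured.

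The measured heavy chains that pair with B2m differed in direction, and all negative ones were dim. Of 24 genes listed 11 were measured, 7 with a positive and 4 with a negative difference, 0 called, and a median of 0.03. That median includes dim genes, and all 4 negative ones, H2-Q2 and H2-T24 among them, had means under the array medians. Every heavy chain with means above the array medians was positive, from 0.03 ± 0.09 to 0.43 ± 0.11. This split by level was made after the values were seen. The classical heavy chain H2-K1 read 10.68, 10.02 and 10.40 in Prox1-OE and 10.10, 9.95 and 10.04 in control, a difference of 0.34 ± 0.16 (limma adjusted p = 0.761). Its Prox1-OE replicate 2 lay within the controls. H2-D1, the other classical heavy chain measured here and named after its values were seen, read 10.33, 9.84 and 10.22 against 9.92, 9.85 and 9.84, a difference of 0.26 ± 0.13. Prox1-OE replicate 2 lay level with the lowest control.

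Among the nonclassical heavy chains, H2-M3, which presents formylated peptides of bacteria, differed by 0.43 ± 0.11 and its groups did not overlap (5.12 ± 0.12 and 4.68 ± 0.15). H2-Q2 differed by -0.43 ± 0.10 and H2-T24 by -0.34 ± 0.10, both with no overlap and with means under the array medians, where RMA values compress. These 3 genes had a limma adjusted p of 0.690. Heavy chain genes are close copies of each other, so a probe set may also bind transcripts of its relatives.

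Of the peptide transporter, Tap2 read higher in Prox1-OE and Tap1 gave no common direction. Tap2 read 5.61, 5.25 and 5.26 on the Prox1-OE arrays and 5.13, 5.09 and 4.84 on the controls, a narrow separation with no overlap. Its difference was 0.36 ± 0.13 (limma adjusted p = 0.702, 95% interval 0.06 to 0.65), and 0.24 ± 0.12 without Prox1-OE replicate 1. Whether Tap2 and Tap1 differ from each other in response was not tested.

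The 4 probe sets of Tap1 did not move together. The brightest, 1416016_at, read 5.09, 4.70 and 5.13 in Prox1-OE and 4.98, 5.0 and 4.76 in control, with the groups intermixed. Its difference was 0.06 ± 0.13 (limma adjusted p = 0.956, 95% interval -0.25 to 0.37), and 0.0012 ± 0.15 without Prox1-OE replicate 1. The next, 1448177_at, read 4.14, 3.76 and 3.81 against 4.11, 4.24 and 4.46 and differed by -0.37 ± 0.13 (limma adjusted p = 0.784 over all probe sets). Prox1-OE replicate 1 lay just inside the control range, and the other Prox1-OE arrays lay below it. The other 2, at percentiles 16.5 and 3.4 of all probe sets, differed by -0.15 ± 0.10 and -0.14 ± 0.08. The mean of the 4 probe sets gave -0.15 ± 0.07 for the gene, so the sign for Tap1 turns with the choice of probe set.

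Tapbp encodes tapasin, the bridge between the transporter and the empty class I molecule. Its brighter probe set, 1421812_at, read 8.22, 7.58 and 7.73 in Prox1-OE and 7.71, 7.51 and 7.5 in control. Prox1-OE replicate 1 was high and replicate 2 lay within the control range. The difference was 0.27 ± 0.16 (limma adjusted p = 0.784), and 0.08 without Prox1-OE replicate 1. The dimmer probe set, 1450378_at, differed by 0.06 ± 0.14. Partners in the endoplasmic reticulum were measured for 9 of 10 genes, of which 8 were positive with a median of 0.05 and 0 called. Erap1, the protease that trims peptides to length, differed by 0.21 ± 0.09, and Tapbpl, a relative of tapasin that edits peptides, by 0.21 ± 0.10, both with no overlap (limma adjusted p = 0.753 and 0.756). Pdia3, a thiol oxidoreductase of the loading complex, differed by 0.27 ± 0.12.

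**Figure D2:**
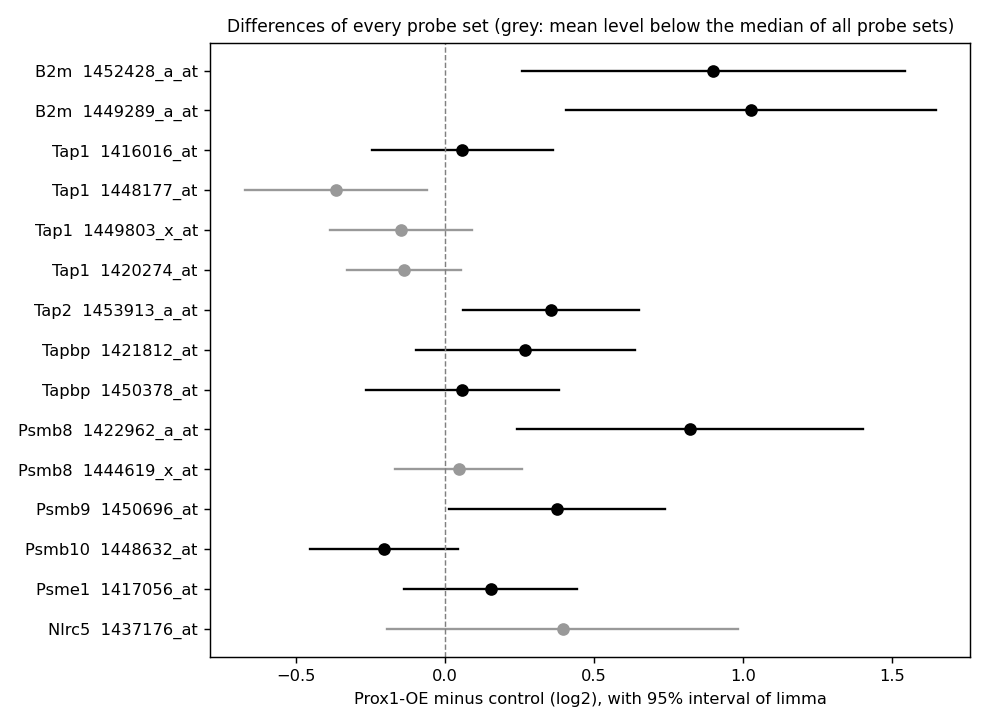
Difference between Prox1-OE and control (log2, horizontal axis) for each of the 15 member probe sets, with points for the estimate, lines for the 95% interval of limma and grey for probe sets whose mean lies below the median of all probe sets. Both B2m probe sets, the Tap2 and Psmb9 probe sets and the brighter Psmb8 probe set have intervals above 0, and 1448177_at of Tap1 has one below 0.

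Of the immunoproteasome subunits, Psmb8 and Psmb9 were higher and Psmb10 lower. Psmb8, which replaces Psmb5 and cuts after hydrophobic residues, read 6.27, 5.08 and 5.58 on Prox1-OE replicates 1 to 3 and 4.69, 4.79 and 4.99 on the controls. The 3 Prox1-OE arrays spread over more than a doubling, and the lowest stood just above the highest control. The difference of its brighter probe set, 1422962_a_at, was 0.82 ± 0.26 or 1.77-fold (limma adjusted p = 0.690, 95% interval 0.22 to 1.42). Leaving out Prox1-OE replicate 1 gave 0.51 ± 0.17, and the leukocyte covariate 0.10 ± 0.18. The second probe set, 1444619_x_at, at percentile 8.3 of all probe sets, read between 2.90 and 3.10 on all 6 arrays and differed by 0.05 ± 0.09.

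Psmb9, which replaces Psmb6, read 5.83, 5.26 and 5.27 in Prox1-OE and 4.96, 5.21 and 5.05 in control. Prox1-OE replicates 2 and 3 lay barely above control replicate 2. The difference was 0.38 ± 0.16 (limma adjusted p = 0.748, 95% interval 0.01 to 0.75), becoming 0.19 ± 0.11 when Prox1-OE replicate 1 was left out and 0.02 ± 0.17 under the leukocyte covariate.

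Psmb9, Tap1, Psmb8 and Tap2 lie in this order as neighbouring protein-coding genes on chromosome 17. Psmb9 and Tap1 start back to back, and the 225 bases between their starts are shown because the same stretch precedes both genes, whose values differ in direction across probe sets. They are given from RefSeq (GRCm38.p6, chr17:34187331-34187555) and read 5' to 3' on the plus strand, in the direction of Tap1. Capitals mark matches to the motifs given here.
Tap1 and Psmb9: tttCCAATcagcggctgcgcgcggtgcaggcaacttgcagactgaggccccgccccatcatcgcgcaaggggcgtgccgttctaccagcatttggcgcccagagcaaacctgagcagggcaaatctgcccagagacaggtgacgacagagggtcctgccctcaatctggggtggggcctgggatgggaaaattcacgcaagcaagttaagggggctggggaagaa
The stretch between Tap1 and Psmb9 held the CCAAT box, at -222 to -218 from Tap1 and -8 to -4 from Psmb9. Tapbp held the CCAAT box at -248 and -165. Of the 10 members 8 had an entry in the promoter table, and Tap2 and Nlrc5 had none.

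Psmb10, the third immunosubunit, which replaces Psmb7, read 10.47, 10.74 and 10.79 in Prox1-OE and 10.88, 10.80 and 10.92 in control. All Prox1-OE arrays lay below the controls, replicates 2 and 3 only just. The difference was -0.20 ± 0.11 (limma adjusted p = 0.773, 95% interval -0.45 to 0.04), moving to -0.10 ± 0.10 when Prox1-OE replicate 1 was left out and to -0.024 ± 0.14 under the leukocyte covariate. The gene lay at percentile 98.2 of all genes by mean level, whereas Psmb8 and Psmb9 lay at 48.5 and 48.9, although such ranks also depend on the probes. Psmb10 lies between the protein-coding genes Ctrl and Lcat on chromosome 8. Ctrl, at percentile 99.98 of all genes, differed by -0.07 ± 0.08, with every Prox1-OE array below every control. Of the 6 acinar markers measured, which do not include Ctrl, 5 were negative, 3 with no overlap, with a median of -0.05 and 0 called. Lcat, at percentile 52.3, differed by -0.01 ± 0.11. Whether transcripts of Ctrl add to the Psmb10 signal was not tested.

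To set each immunosubunit against the subunit it replaces, the difference between their log2 levels was taken within each array and expressed relative to the control mean. Psmb8 against Psmb5 stood at 1.35, 0.07 and 0.66 in Prox1-OE and -0.25, -0.09 and 0.34 in control, a change of 0.69 ± 0.41 (SE, n = 3 against 3, exact two-sided permutation p = 0.2, 0.3 after adjustment over the 3 pairs). Control replicate 3 lay above Prox1-OE replicate 2. Leaving out Prox1-OE replicate 1 gave 0.37, and 0.31 was found for the mean of both Psmb8 probe sets. Psmb9 against Psmb6 changed by 0.25 ± 0.22 with overlapping groups (exact permutation p = 0.5, adjusted 0.5), and by 0.06 without Prox1-OE replicate 1.

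Psmb10 against Psmb7 went the other way. It stood at -0.70, -0.28 and -0.30 in Prox1-OE and -0.10, -0.11 and 0.21 in control, with no overlap. The change was -0.43 ± 0.17 (exact permutation p = 0.1, the smallest that 3 against 3 can give, and 0.3 after adjustment), and -0.29 without Prox1-OE replicate 1. Without control replicate 3 it was -0.32 (exact permutation p = 0.2). Both subunits enter the change, since Psmb7 differed by 0.22 ± 0.10 and Psmb10 by -0.20 ± 0.11.

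**Figure D3:**
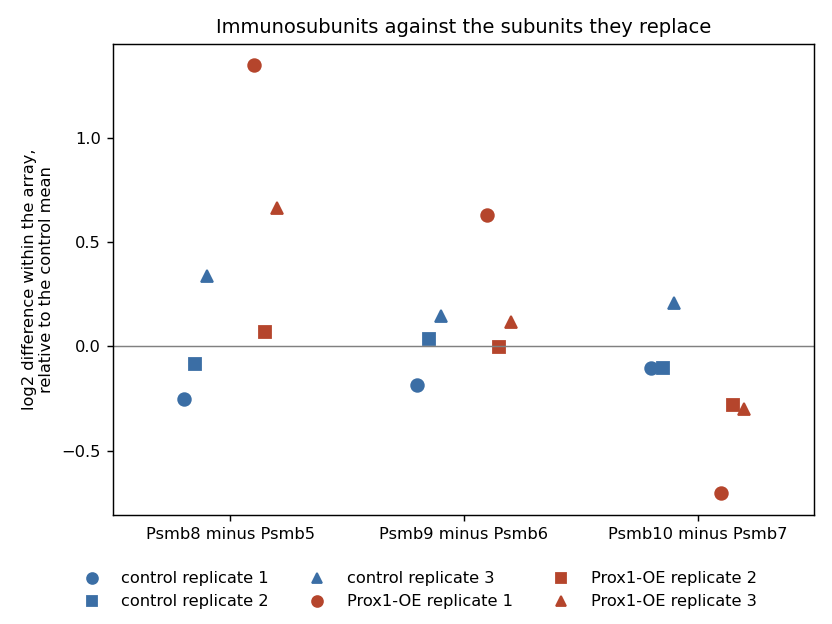
Log2 level of each immunosubunit minus that of the constitutive subunit it replaces, within each array and relative to the control mean (vertical axis), on control (blue) and Prox1-OE (red) arrays, with replicate numbers as marker shapes. Prox1-OE replicate 1 is the highest array for Psmb8 and Psmb9 and the lowest for Psmb10, and only the Psmb10 pair has no overlap between the groups.

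Psme1 encodes a subunit of the interferon-inducible activator that opens the proteasome gate. It read 8.07, 7.58 and 7.77 in Prox1-OE and 7.70, 7.62 and 7.65 in control, with Prox1-OE replicate 2 the lowest of all arrays and replicate 1 the highest. The difference was 0.15 ± 0.13 (limma adjusted p = 0.838, 95% interval -0.14 to 0.45), and 0.02 ± 0.10 without Prox1-OE replicate 1. Psme3, which encodes the nuclear activator that interferon does not induce and was named after its values were seen, differed by 0.00 ± 0.14. In the list of other activators, assembly factors and the inhibitor, 5 of 9 genes were positive and 0 called. Pomp, the chaperone that assembles new proteasomes and favours the immune form, differed by 0.30 ± 0.12 with no overlap (limma adjusted p = 0.739).

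Nlrc5, the transactivator that switches on class I genes, was dim, at percentile 27.3 of all genes. It read 4.71, 3.48 and 4.03 on Prox1-OE replicates 1 to 3 and 3.75, 3.71 and 3.58 on the controls. Prox1-OE replicate 1 was the highest array and replicate 2 the lowest, so the controls lay inside the Prox1-OE range. The difference was 0.39 ± 0.26 (limma adjusted p = 0.800, 95% interval -0.21 to 1.0), and 0.07 once Prox1-OE replicate 1 was left out.

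Regulators upstream of these genes showed no common direction. Of 27 listed 25 were measured, 16 with a positive and 9 with a negative difference, 0 called, and a median of 0.06. Ifngr1, a chain of the interferon-gamma receptor, differed by 0.42 ± 0.12, from 7.05 ± 0.14 to 7.47 ± 0.17, with no overlap (limma adjusted p = 0.690). Tyk2, a kinase of the type I interferon receptor, differed by -0.38 ± 0.12, also with no overlap (limma adjusted p = 0.690). Irf8, a transcription factor of B cells and macrophages, differed by 0.48 ± 0.24 with overlapping groups. Irf1, the factor that drives class I genes after interferon-gamma, differed by 0.06 ± 0.15, and Ifng itself, near background at 2.84 in both groups, by 0.00 ± 0.14. Irf1 and Ifng were named after their values were seen.

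The constitutive proteasome, which all cells use to degrade proteins, was slightly higher in nearly every subunit, with 0 genes called. All 14 core subunits measured had a positive difference, from 0.06 to 0.25 with a median of 0.15, and so did all 17 measured subunits of the regulatory particle, from 0.02 to 0.29 with a median of 0.19. Psma1, a core subunit, differed by 0.25 ± 0.11 and Psmc1, an ATPase of the regulatory particle, by 0.28 ± 0.15 (limma adjusted p = 0.753 and 0.774). Psmb5, Psmb6 and Psmb7 differed by 0.13 ± 0.10, 0.13 ± 0.10 and 0.22 ± 0.10.

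This pattern rested on control replicate 3 more than on Prox1-OE replicate 1. The counts held under both other normalizations, and leaving out Prox1-OE replicate 1 gave medians of 0.15 and 0.17 with 14 of 14 and 17 of 17 genes positive. Relative to the control mean, the core list averaged 0.18, 0.18 and 0.11 for Prox1-OE replicates 1 to 3 and 0.02, 0.15 and -0.17 for the controls, so control replicate 2 reached the Prox1-OE arrays. Without control replicate 3 the medians of the core and the regulatory particle were 0.06 and 0.06, with 12 of 14 and 13 of 17 genes positive.

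Pan-leukocyte markers, of white blood cells that are rich in class I processing, read highest on the same array as most members. Relative to the control mean, the 9 members averaged 0.70, 0.04 and 0.31 for Prox1-OE replicates 1 to 3 and 0.05, 0.00 and -0.05 for the controls. The 12 pan-leukocyte markers averaged 1.83, 0.25 and 0.87 against 0.09, -0.04 and -0.05. Of the 9 members, 7 had the Prox1-OE arrays in this same order of replicate 1, replicate 3 and replicate 2 from high to low, as did 11 of the 12 markers and 19.5% of all genes. The order was held by 3 of 10 macrophage markers, 3 of 7 B cell markers, 4 of 7 T and NK cell markers, 2 of 7 dendritic cell markers, 13 of 25 regulators of class I genes and 1 of 14 core proteasome subunits. Also 7 of the 9 members read highest of all 6 arrays on Prox1-OE replicate 1, as 18.9% of all genes did. The order and the choice of that array were taken from these same values. The counts for the members and the pan-leukocyte markers therefore describe them and test nothing. Of the 12 pan-leukocyte markers 11 were positive, 8 with no overlap, 0 called, with a median of 0.85, and of 0.52 without Prox1-OE replicate 1. Cd52, a surface glycoprotein of lymphocytes and myeloid cells, differed by 2.33 ± 0.66, Cd53, a tetraspanin of leukocytes, by 1.45 ± 0.43 and Laptm5, a lysosomal membrane protein of blood cells, by 1.14 ± 0.34 (limma adjusted p = 0.690 for each).

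The mean log2 level of 7 measured B cell markers was 4.59 to 5.78 in Prox1-OE and 4.34 to 4.41 in control, with 4 of the 7 positive. That of 10 macrophage markers was 6.72 to 7.26 against 6.27 to 6.55, with 9 positive. Both ranges lay above control on all 3 Prox1-OE arrays. On Prox1-OE replicate 2 only Ms4a1 (4.79 against 3.86 to 4.25) and Ighm (7.13 against 5.72 to 6.51) of the B cell list read above every control. The other B cell markers lay within or below the control range on that array. For 7 T and NK cell markers (4.24 to 4.89 against 4.28 to 4.42) and 7 dendritic cell markers (4.11 to 4.31 against 4.07 to 4.26) the groups overlapped. No marker could be called absent, since RMA values have no zero. Ms4a1, which encodes CD20 of B cells, had the largest difference of its list, 2.26 ± 0.62. The B cell markers Pax5, Cd79a and Blk differed by -0.10, -0.07 and -0.01. C1qc, a complement chain made by macrophages, differed by 0.59 ± 0.13, and C1qa, of the same list, by -0.13 ± 0.15. Blood endothelial markers, of cells that also carry much class I, had 6 of 6 positive and a median of 0.12. Relative to the control mean they averaged 0.28, 0.05 and 0.13 for Prox1-OE replicates 1 to 3 and 0.23, 0.17 and -0.40 for the controls, so the groups overlapped and control replicate 3 alone lay below all Prox1-OE arrays. Beta cell markers went the other way, with 6 of 6 negative, 3 with no overlap, 0 called and a median of -0.45. Their mean level was 7.63 to 7.87 in Prox1-OE and 8.10 to 8.50 in control. Slc2a2, the glucose transporter of beta cells, had the largest difference of the list, -1.23 ± 0.18 (limma adjusted p = 0.292). The brightest of the list, Ins2 and Iapp, differed by -0.18 ± 0.20 and -0.15 ± 0.15 with overlapping groups. The part of any one of these cell types in the differences of the members was not tested. The fit with the pan-leukocyte mean, under which the members lay between -0.37 and 0.11, cannot give it. That mean shares its high arrays with the genotype.

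**Figure D4:**
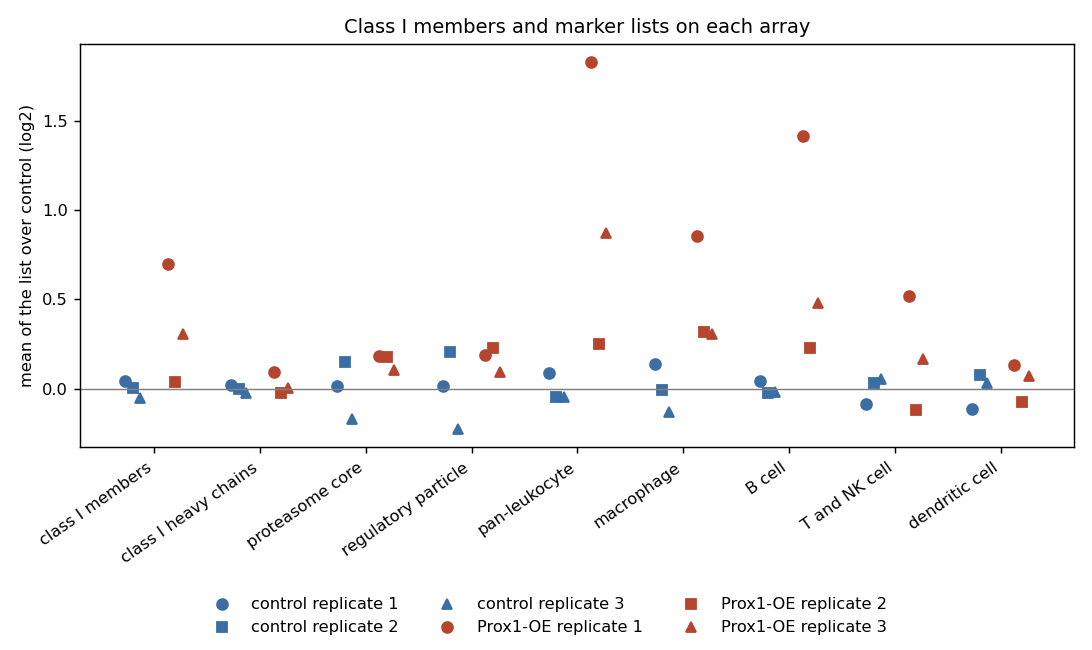
Mean over control (log2, vertical axis) of the 9 class I members and of lists of related and marker genes (horizontal axis) on each control array (blue) and Prox1-OE array (red), with replicate numbers as marker shapes. The members and the pan-leukocyte list both have Prox1-OE replicate 1 highest, replicate 3 next and replicate 2 nearest to control, whereas for both proteasome lists control replicate 3 is lowest.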

How the data were processed

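The authors deposited log2 probe set summaries of 6 arrays in 1 table. Per the submitters' processing notes, the tools were RMA, which corrects background, quantile-normalizes and summarizes, and Partek 6.5, without further detail. RMA compresses differences of dim probe sets, and shared distributions hide changes of total RNA.

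Genes were named from the platform annotation for probe sets with 1 symbol; 34754 of these 34958 probe sets matched RefSeq by gene identifier, and 0 symbols changed. Prox1-OE was compared with control by limma 3.58.1 (lmFit, eBayes; R 4.3.3), without covariate, in a fit of 18194 genes (brightest probe set) and one of all 45037 probe sets other than Affymetrix controls, with Benjamini-Hochberg adjustment at 0.05. Tests were two-sided. The fit was tested on simulated data. Subunit pairs had an exact permutation test. The number of arrays limits precision.

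Members and gene lists were chosen with earlier results of these data known. All members and their constitutive counterparts were named. Other genes were taken from up to 4 genes per list by smallest p and, for marker lists, the 2 brightest. Not all of these are given. Prox1, H2-D1, Psme3, Irf1, Ifng, Ctrl, Lcat, Pax5, Cd79a and Blk were named after their values were seen. Other probe set rules, a filter on dim genes, other normalizations, other variance models, weighted arrays, a replicate block, a threshold of 0.1, a leukocyte covariate and leaving out each array were tried. Another promoter motif that was searched is not reported here.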

Additional observations from a re-analysis of the deposited data

How the results depend on the processing

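The count of members called was 0 under all 17 other settings, and the median difference stayed within 0.21 to 0.42 except without Prox1-OE replicate 1 and with the leukocyte covariate. Leaving out 1 array at a time gave medians of 0.080 (without Prox1-OE replicate 1) to 0.417, and the covariate turned the median to -0.024. That covariate shares its high arrays with the genotype, and it also turned Tap1 (-0.163), Tapbp (-0.152), Psme1 (-0.155) and Nlrc5 (-0.373). Tap1 turned with the mean of its probe sets (-0.15), and, without single arrays, ran from -0.019 (without Prox1-OE replicate 3) to 0.194, with -0.018 without control replicate 3. The replicate number as a block left the median at 0.36 and the count at 0. The deviations of same-numbered arrays correlated at 0.04, 0.14 and 0.11, so the numbers were not taken as pairs. The filter on dim genes kept 4 of the 9 members, B2m, Tapbp, Psmb10 and Psme1, with a median of 0.21. At an unadjusted limma p under 0.05, in place of 4 higher members and 0 lower, leaving out Prox1-OE replicate 2 gave 6 higher, array weights, the replicate block and leaving out control replicate 1 each gave 3, and leaving out Prox1-OE replicate 1 gave 2, as did leaving out control replicate 3. The filter on dim genes gave 1 of the 4 it kept. The covariate gave 0 higher and 1 lower, Nlrc5. The subunit pairs kept their signs under the 10 settings run for them. Over the fits that left out 1 array, they ran from 0.37 to 1.01 for Psmb8 against Psmb5, 0.06 to 0.37 for Psmb9 against Psmb6 and -0.50 to -0.29 for Psmb10 against Psmb7. All other settings for the proteasome and leukocyte lists were added after the data were seen. Members below the median of all genes, Tap1, Tap2, Psmb8, Psmb9 and Nlrc5, lie where RMA limits what a difference can show.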
